A study of Mus musculus with 3 samples.

Results

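The genes described here are 8 feedback regulators of the Wnt pathway whose products stay in or on the cell that makes them: Axin2, Nkd1, Nkd2, Apcdd1, Lrp4, Rnf43, Znrf3 and Sp5. They were chosen by symbol from the 32285 genes of the deposited matrices, and all 8 were found, each in 1 row. Their transcripts were measured by single-cell RNA sequencing (scRNA-seq) in organoids, small bodies of intestinal epithelium grown in a gel, with 1 library for each of 3 genotypes. All mice were labelled C57BL/6, received 2 doses of tamoxifen at 2 mg when 7 to 8 weeks old, and gave small intestinal organoids that were dissociated with trypsin on day 6 of passage 3. WT organoids were wild type. LApc organoids were Lgr5-CreERT2;Apc fl/fl, and LApcL organoids also carried Lef1 fl/fl, from a line of mixed C57BL/6 and 129SV origin that had been backcrossed to C57BL/6. Tamoxifen switches the Cre on only in cells that express Lgr5, the gene of intestinal stem cells, so cells from other lineages of the same crypt could keep both genes. The sample labels put the analysis 29 days after tamoxifen in LApc but 21 days after it in WT and LApcL. The study's organoid methods give earlier days for LApc, the same ones as for LApcL, so which interval holds for LApc is unsettled. If the labels hold, genotype and time cannot be told apart in LApcL against LApc. The study's organoid methods, written for LApc and LApcL, name a DMEM/F12 medium with B27 and N2, without growth factors until passage 3, the passage sequenced. From then on Wnt3a, R-spondin1, noggin and EGF were added in stated combinations. Which combination, if any, the sequenced organoids received, and the medium of the WT organoids, were not given in the sources used here, so medium cannot be told apart from genotype. No genotype had a second library, so no difference has a replicate check and no p-value was computed. All intervals are at the 95% level and cover counting error only.

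Wnt ligands stabilise β-catenin, which enters the nucleus and acts with factors of the Tcf and Lef family, and Apc is part of the complex that destroys β-catenin. Many genes that the pathway switches on in turn restrain it. In the crypt of the small intestine this loop is known for holding the stem cell zone in bounds, and Axin2 is the usual readout of an active pathway. Axin2 is a scaffold of the destruction complex. Nkd1 and Nkd2 bind Dishevelled, the protein that relays the signal from the receptor. Apcdd1 is a membrane glycoprotein that binds Wnt, and Lrp4 is a membrane relative of the co-receptors Lrp5 and Lrp6. Rnf43 and Znrf3 are membrane ubiquitin ligases that remove Frizzled receptors, and Sp5 is a nuclear factor that represses other Wnt targets.

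Because Lef1 and its relatives bind the core CTTTGA, the 250 bases before the start sites were read from RefSeq (GRCm38.p6) on both strands. Of the 8 genes, 5 had an entry there, with 6 start sites. Apcdd1, Lrp4 and Znrf3 had none. The sequences of Sp5, the gene with the core, and of Axin2 and Nkd1, the pair with most UMIs in LApc, are shown 5′ to 3′ with the core in capitals. Sp5 is chr2:70474673-70474922, Axin2 is chr11:108920099-108920348 and Nkd1 is chr8:88527383-88527632, all forward.
Sp5: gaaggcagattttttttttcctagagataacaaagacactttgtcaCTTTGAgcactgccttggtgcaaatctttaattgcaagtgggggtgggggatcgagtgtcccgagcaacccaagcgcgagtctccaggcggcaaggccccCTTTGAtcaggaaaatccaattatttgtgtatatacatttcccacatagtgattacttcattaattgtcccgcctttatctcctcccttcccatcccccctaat
Axin2: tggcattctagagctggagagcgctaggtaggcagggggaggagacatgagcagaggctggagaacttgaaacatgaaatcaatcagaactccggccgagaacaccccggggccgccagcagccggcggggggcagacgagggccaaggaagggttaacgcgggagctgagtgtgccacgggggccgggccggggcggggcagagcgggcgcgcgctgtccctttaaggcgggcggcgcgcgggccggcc
Nkd1: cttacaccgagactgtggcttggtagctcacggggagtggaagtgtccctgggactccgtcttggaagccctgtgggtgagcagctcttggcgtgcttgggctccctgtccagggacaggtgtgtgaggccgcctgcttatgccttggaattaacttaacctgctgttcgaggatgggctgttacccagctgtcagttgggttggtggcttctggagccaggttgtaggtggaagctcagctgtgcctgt

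Sp5 held 2 copies of CTTTGA, which ended 199 and 99 bases before its start. The second was followed by T, which gives the longer form CTTTGAT. None of the 5 other start sites, those of Axin2, Nkd1, Nkd2 and Rnf43, held the core on either strand. Some RefSeq start sites differ from the gene starts given below. The Nkd1 window and both Rnf43 windows (chr11:87662837-87663086 and chr11:87699647-87699896) lie inside those gene spans. The bases before the spans of Nkd1 and Rnf43 were therefore not read. Across 32851 mouse promoters of the same length, 13.8% held the core at least once, 1.37% held it at least 2 times and 3.21% held the longer form. The letters describe these windows only, and nothing about binding was measured.

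On GRCm38, Axin2 (ENSMUSG00000000142) lies at chr11:108920349-108950783 and Rnf43 (ENSMUSG00000034177) at chr11:87662722-87735539, both on the forward strand. Znrf3 (ENSMUSG00000041961) is on the reverse strand of the same chromosome, at chr11:5276324-5444847. Nkd1 (ENSMUSG00000031661) lies at chr8:88521354-88594884 and Apcdd1 (ENSMUSG00000071847) at chr18:62922231-62961179, both forward, and Nkd2 (ENSMUSG00000021567) at chr13:73818534-73847631, reverse. Lrp4 (ENSMUSG00000027253) at chr2:91457511-91513779 and Sp5 (ENSMUSG00000075304) at chr2:70474923-70477729 are both forward. All 8 are annotated as protein coding. Axin2 overlaps Gm11670 on the opposite strand and Rnf43 overlaps 1110028F11Rik on its own strand, so strand does not tell reads of Rnf43 and 1110028F11Rik apart there. How such reads were counted was not tested.

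Values rest on deep barcodes, those found in 1 library only, with at least 10000 UMIs (unique molecular identifiers, each tagging 1 captured RNA molecule) and at most 20% mitochondrial UMIs. There were 1208 in WT, 2161 in LApc and 1931 in LApcL, with medians of 32584 to 38073.5 UMIs per barcode. The 3 libraries had 3195 barcodes in common. With those found in 2 libraries, 27.3% to 30.3% of a library's barcodes were shared, and all of these were left out. Median mitochondrial shares were 10.5%, 5.64% and 6.39% in WT, LApc and LApcL. Epithelial markers were present in each library, at a summed level of 3523 to 6770 CPM (counts per 1e+06 UMIs of the library) over 5 genes, while 4 leukocyte genes summed to at most 0.327 CPM. The WT library also held 690 barcodes (57.1%) with at least 1% of UMIs from 8 enterocyte genes, and the other libraries held 0. Lef1 was at 0.961, 72.0 and 47.8 CPM in WT, LApc and LApcL, the order kept for every set of 3 values given here. Reads of this assay come from the 3′ end of a transcript and where the floxed part lies was not given in the sources used here, so this level does not measure the deletion.

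The levels of 6 of the 8 genes were at least 2-fold higher in LApc than in WT, and 7 of 8 were in LApcL. Axin2 was at 19.6 CPM in WT, against 388 CPM in LApc and 299 CPM in LApcL. Its log2 ratio, computed here and below on CPM + 1, was 4.24 (4.15 to 4.33) for LApc against WT and 3.86 (3.78 to 3.95) for LApcL against WT. WT was thus lowest and LApc highest, with no overlap of the counting intervals.

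Nkd1 showed the widest range. It was at 0.368 CPM in WT, from 18 UMIs in 7 of the 1208 cells, at 527 CPM in LApc and at 179 CPM in LApcL. The log2 ratios to WT were 8.59 and 7.04, but they depend on the pseudocount because WT was near 0, with 5.70 and 4.19 at 10 CPM and 10.14 and 8.58 at 0.1 CPM. Apcdd1 followed the same order, with 2.15, 239 and 34.8 CPM and log2 ratios of 6.25 and 3.51, which became 4.36 and 1.88 with a pseudocount of 10 CPM. Of the 8 genes, it differed most between LApc and LApcL on the log2 scale. Nkd2, the paralog of Nkd1, was close to absent in all 3 libraries, at 0.184, 0.297 and 0.224 CPM, from 9, 27 and 18 UMIs. Its intervals overlapped in every comparison, and the sign of its ratio for LApcL against WT, 0.047, turned under some settings.

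The receptor ubiquitin ligases were also higher in LApc and LApcL than in WT. Rnf43 was at 22.3, 124 and 140 CPM, with log2 ratios to WT of 2.43 and 2.60. Znrf3 was at 6.24, 66.8 and 40.1 CPM, with log2 ratios of 3.23 and 2.50, or 2.24 and 1.62 with a pseudocount of 10 CPM. Sp5 was at 10.5, 118 and 86.1 CPM, with log2 ratios of 3.38 and 2.92, or 2.65 and 2.23 with that pseudocount. Lrp4 had the smallest ratios of the 7 genes above 10 CPM. It was at 10.2, 20.3 and 31.0 CPM, and its log2 ratio of 0.93 (0.79 to 1.06) for LApc against WT was just under 2-fold, though just past it as a mean of per-cell CPM, while 1.51 for LApcL against WT passed it.

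**Figure D1:**
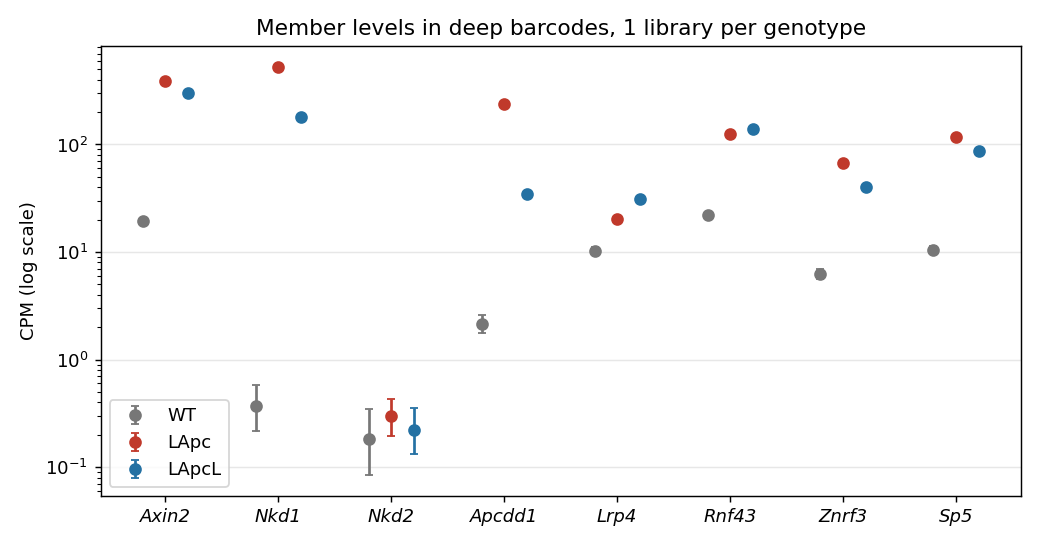
Level of each of the 8 genes in WT, LApc and LApcL, in CPM on a log axis, summed over the deep barcodes of 1 library each, with exact 95% Poisson intervals. WT is lowest for 7 genes, from 0.368 CPM (Nkd1) to 22.3 CPM (Rnf43), the intervals of Nkd2 overlap, and LApcL lies above LApc for Lrp4 and Rnf43.

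Against all genes, 24% of 9068 were at least 2-fold higher and 9.8% at least 2-fold lower in LApc than in WT. For LApcL against WT these shares were 26.8% and 10.4% of 9043. A gene entered this background when either library of the pair had it at 10 CPM or more, which all but Nkd2 of the 8 genes did. The median log2 ratio of the 7 genes that passed was 3.38 for LApc against WT, where that of all tested genes was 0.50, and 2.92 for LApcL against WT, where that of all tested genes was 0.52. Scaling by median-of-ratios size factors in place of UMI totals brought the medians of all genes to 0.06 and 0.12. It changed the split of all genes past 2-fold from 2174 higher and 889 lower to 1221 higher and 1380 lower in LApc against WT, and from 2420 and 939 to 1367 and 1387 in LApcL against WT. The direction of none of these 7 genes turned under it, and the ratio of Lrp4 for LApc against WT fell to 0.54.

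The WT library differed from the others in cell types, and this moved with the ratios. Enterocyte markers summed to 21278 CPM in WT but to 8.84 and 14.7 CPM in LApc and LApcL. Enteroendocrine markers summed to 1630, 14.3 and 2.86 CPM, and Paneth markers to 242, 1451 and 3805 CPM. Goblet markers summed to 1458, 327 and 661 CPM, and stem cell markers to 409, 1042 and 1490 CPM. The stem list holds Axin2 itself, and its 5 other genes summed to 389, 654 and 1190 CPM. Against these sums, Olfm4 of the stem list was at 72.1, 0.627 and 0.0994 CPM, and Itln1 of the Paneth list at 146, 141 and 83.7 CPM. Tuft markers summed to 1.72, 14.7 and 1.76 CPM, but Avil alone made 13.8 CPM of the LApc sum, while Dclk1 and Trpm5 were lowest in LApc. In summed counts, fewer cells of a type and less RNA per cell cannot be told apart. Among WT barcodes, Axin2 was at 9.66 CPM in the 690 enterocyte-rich ones and at 34.9 CPM in the 518 others. Znrf3 was at 4.15 and 9.44 CPM, Lrp4 at 8.95 and 12.2 CPM and Rnf43 at 20.1 and 25.7 CPM, all lower in the enterocyte-rich barcodes. Sp5 went the other way, at 12.8 CPM in the enterocyte-rich and 6.95 CPM in the other barcodes. For Apcdd1, at 2.40 and 1.76 CPM, and Nkd2, at 0.135 and 0.259 CPM, the counting intervals overlapped. All 18 UMIs of Nkd1 were in the other barcodes. Set against the 518 others alone, the levels of Axin2, Nkd1, Apcdd1, Rnf43, Znrf3 and Sp5 in LApc were still above 2-fold higher. The log2 ratio of Axin2 fell to 3.44 for LApc and 3.06 for LApcL, and that of Sp5 rose to 3.91 and 3.45.

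WT cells were also divided by whether an Lgr5 UMI was left after each cell had been thinned at random to 10000 UMIs. Axin2 was at 56.2 CPM (49.7 to 63.3) in the 118 cells with Lgr5 and at 15.6 CPM (14.4 to 16.8) in the 1090 others. Rnf43 was at 29.8 and 21.5 CPM, Znrf3 at 11.0 and 5.72 CPM and Lrp4 at 14.3 and 9.78 CPM. Nkd1 was at 2.27 CPM from 11 UMIs, against 0.159 CPM from 7 UMIs. For Sp5, 11.6 and 10.4 CPM, and for Apcdd1, 1.86 and 2.18 CPM, the counting intervals overlapped.

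LApcL against LApc is the comparison that bears on Lef1. Of the 8 genes, 2 were at least 2-fold lower in LApcL and 0 were at least 2-fold higher, where 3.2% of 8739 tested genes were lower by that much and 1.28% were higher. Apcdd1 went from 239 CPM (236 to 243) in LApc to 34.8 CPM (33.6 to 36.2) in LApcL. The log2 ratio was -2.75 (-2.80 to -2.69), so that LApc held 6.87 times the LApcL level. Nkd1 went from 527 CPM (523 to 532) to 179 CPM (176 to 182), a log2 ratio of -1.56 (-1.58 to -1.53), with 2.95 times the LApcL level in LApc. The Paneth, goblet and dividing-cell sums, and the stem sum with or without Axin2, were higher in LApcL than in LApc. Single genes of these lists went the other way. From LApc to LApcL, Lyz1 fell from 317 to 218 CPM and Itln1 from 141 to 83.7 CPM in the Paneth list. Fcgbp fell from 44.1 to 19.6 CPM in the goblet list, and Olfm4 from 0.627 to 0.0994 CPM in the stem list. The part of these cell types in the Apcdd1 and Nkd1 ratios was not tested.

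The values of 5 other genes lay within 2-fold but with counting intervals that did not reach 0. The log2 ratio was -0.72 (-0.78 to -0.66) for Znrf3, -0.45 (-0.50 to -0.41) for Sp5 and -0.37 (-0.40 to -0.35) for Axin2. It was 0.59 (0.50 to 0.67) for Lrp4 and 0.18 (0.14 to 0.21) for Rnf43. The paired ubiquitin ligases Rnf43 and Znrf3 therefore stood on opposite sides of 0. For Nkd2 the ratio was -0.08 (-0.26 to 0.10), which at 18 and 27 UMIs leaves either direction. The median of the 7 genes above 10 CPM was -0.45, where that of all tested genes was 0.05.

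**Figure D2:**
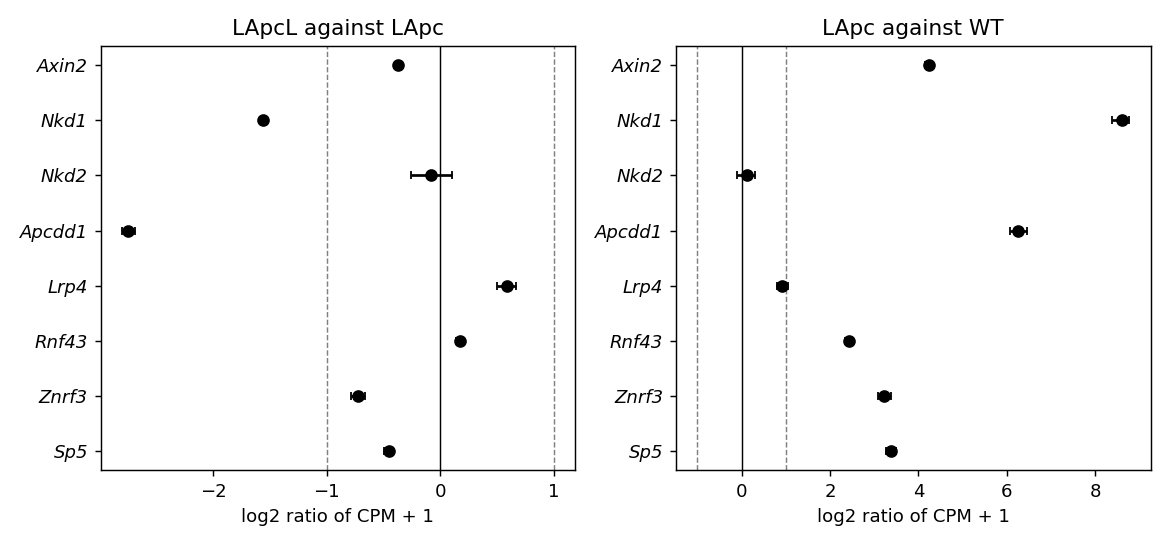
Log2 ratio of CPM + 1 for each of the 8 genes in LApcL against LApc and in LApc against WT, with exact conditional binomial 95% intervals and dashed lines at 2-fold. In LApcL against LApc, Apcdd1 (-2.75) and Nkd1 (-1.56) lie beyond the line, and in LApc against WT all but Nkd2 and Lrp4 do.

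Other genes of the pathway were compared on the same scale in LApcL against LApc, where 3.2% of all tested genes were at least 2-fold lower and 1.28% higher. Of 11 secreted antagonists, which act on Wnt or its receptors from outside the cell, 5 passed 10 CPM. Among these, 3 were at least 2-fold lower and 1 at least 2-fold higher, with a median of -2.03, from Dkk3 at -4.40 to Sfrp5 at 2.20. Of 18 receptors, 12 passed, 2 of them at least 2-fold higher and 0 lower, from Fzd5 at -0.39 to Lgr5 at 1.35, with a median of 0.37. Of the 4 Tcf factors, 3 passed and none was past 2-fold, with Tcf7 at -0.79 and Tcf7l2 at 0.24 and a median of -0.58. The Dishevelled proteins and β-catenin cofactors had 7 of 8 genes tested and none past 2-fold, from Ctnnb1 at -0.30 to Bcl9l at 0.31, with a median of 0.08. Of 14 crypt targets of the pathway, 13 passed, with 1 at least 2-fold higher and 2 lower, from Prox1 at -1.48 to Lgr5 at 1.35 and with a median of 0.27. Of 5 paralogs of the 8 genes, 3 passed and none was past 2-fold, between Lrp6 at 0.08 and Lrp5 at 0.35, with a median of 0.16.

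In LApc against WT, the numbers at least 2-fold higher were 5 of 5 secreted antagonists, 7 of 10 receptors, 2 of 3 Tcf factors, 4 of 7 Dishevelled proteins and cofactors, 10 of 14 crypt targets and 1 of 3 paralogs. Over all tested genes this share was 24%. The 5 antagonists, of 11 listed, were at 0.0205 to 0.389 CPM in WT and passed 10 CPM only through LApc, so 5 of 5 followed from that rule. The lists were not recounted with median-of-ratios size factors. The receptor Fzd5 and the crypt target Olfm4 were at least 2-fold lower. The medians were 6.34, 1.32, 3.15, 1.15, 2.28 and 0.18. In LApcL against WT the same lists had 3 of 3, 9 of 11, 2 of 3, 4 of 7, 11 of 14 and 1 of 3 genes at least 2-fold higher, with medians of 5.74, 1.85, 2.36, 1.16, 2.45 and 0.34. Over all tested genes this share was 26.8%. The 3 antagonists, at 0.102 to 0.389 CPM in WT, passed 10 CPM only through LApcL, so 3 of 3 followed from that rule as well. They are fewer than the 5 tested in LApc against WT, so the medians of the antagonists rest on different sets. Both comparisons use the same WT library.

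How many cells carried each transcript was counted after every deep barcode had been thinned at random to 10000 UMIs. For Axin2 the WT share was 15.2% (13.3 to 17.4), the LApc share 92.8% (91.7 to 93.9) and the LApcL share 90.4% (89.0 to 91.7). Nearly every LApc or LApcL cell thus held Axin2, and the intervals of LApc and LApcL overlapped only between 91.66% and 91.70%. That overlap depends on the random draw: with another seed the shares were 93.4% (92.3 to 94.4) and 90.3% (88.9 to 91.6), and at 5000 UMIs they were 80.3% and 72.9%. Nkd1 was found in 0.331%, 75.6% (73.7 to 77.4) and 70.9% (68.9 to 73.0) of cells. Apcdd1 was found in 1.82%, 61.1% (59.0 to 63.2) and 29.7% (27.6 to 31.8) of cells.

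Lrp4 was found in 10.9%, 20.9% and 28.1% of cells, and Rnf43 in 19.0%, 68.1% and 71.6%. Znrf3 was found in 4.80%, 46.6% and 35.2% of cells, Sp5 in 7.78%, 56.1% and 52.5%, and Nkd2 in 0.331%, 0.278% and 0.207%. Between LApc and LApcL, the intervals were apart with a lower share in LApcL for 3 genes, Nkd1, Apcdd1 and Znrf3, and with a higher share for 1, Lrp4. By the same rule 16.2% of 8739 genes had a lower share in LApcL and 25% a higher one. Another seed added Axin2 to the lower ones. Nkd1 was not among them without Npy-positive cells, where its shares of 73.6% (71.3 to 75.7) in LApc and 70.9% (68.9 to 73.0) in LApcL overlapped. Without thinning, the shares for Axin2 were 34.0%, 99.2% and 98.3%. For Nkd1 they were 0.579%, 86.4% and 89.8%, so that the order of LApc and LApcL turned, as it also did for Rnf43. For Apcdd1 they were 6.79%, 80.7% and 58.7%, and for Nkd2 0.662%, 1.20% and 0.932%. The unthinned shares of Lrp4 were 31.7%, 49.7% and 62.6%, of Rnf43 50.2%, 93.9% and 91.9%, of Znrf3 20.9%, 80.3% and 70.1%, and of Sp5 20.9%, 83.2% and 82.8%.

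**Figure D3:**
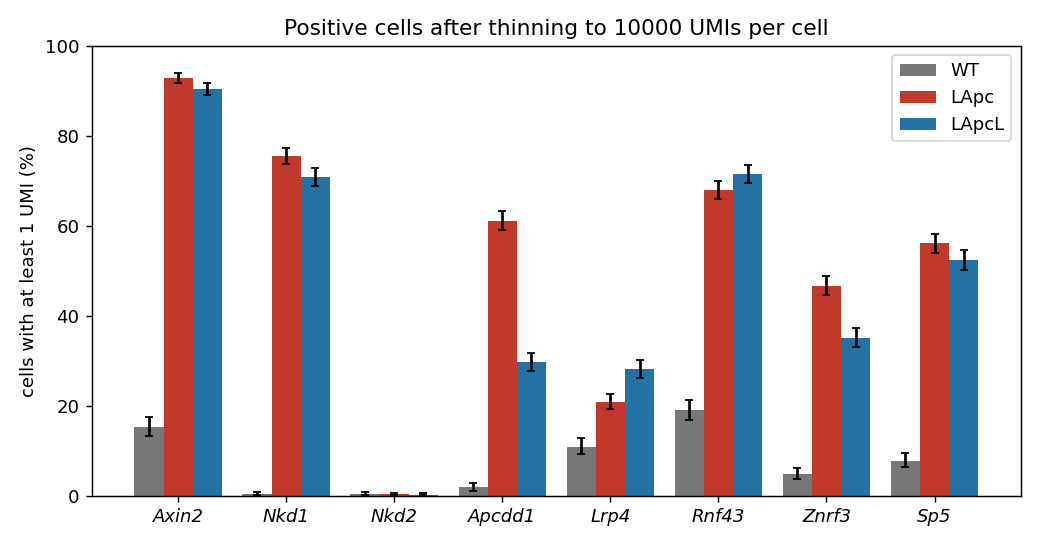
Share of deep barcodes with at least 1 UMI of each gene after thinning to 10000 UMIs, in percent, in WT, LApc and LApcL, with exact Clopper-Pearson 95% intervals. Apcdd1 shows the widest gap between LApc (61.1%) and LApcL (29.7%), while Axin2 is above 90% in both.

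The barcodes that libraries had in common were set beside these shares. Their endothelial markers summed to 3492 to 3844 CPM, and their epithelial markers to 70.2, 748 and 563 CPM. Medians there were 2395, 1905 and 1990 UMIs, so both pools were thinned to 1000 UMIs, which left out 405, 897 and 827 shallower shared barcodes. At this depth Nkd1 was found in 38.6% of deep and 0.656% of shared LApc barcodes, Axin2 in 33.1% and 1.18%, and Apcdd1 in 19.2% and 1.22%. In LApcL the deep and shared shares were 17.8% and 0.208% for Nkd1, 26.7% and 0.749% for Axin2, and 3.52% and 0.957% for Apcdd1. In WT, Axin2 was found in 2.57% of deep and 0.319% of shared barcodes and Rnf43 in 2.32% of deep and 0 of 2820 shared barcodes, which allows up to 0.106% when 3 counts are taken as the limit of a count of 0 (0.131% by the Clopper-Pearson interval). In the same library the deep and shared shares of Nkd1 (0.166% and 0.142%) and Znrf3 (0.497% and 0.496%) were close, while Apcdd1 was lower in the deep barcodes (0.414% and 1.21%), with intervals that overlapped. Nkd2 was in 0 deep barcodes of any library at this depth, which by the same rule allows up to 0.248% in WT (0.305% by the interval), and in 0.219% to 0.319% of shared barcodes. Since the shared barcodes hold endothelial RNA of their own, they do not measure free RNA alone. How much of the WT UMIs of Nkd1, Nkd2, Apcdd1 and Znrf3 was free RNA was not tested.

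Shares and levels parted for Nkd1, since the amount per positive cell differed. At 10000 UMIs, positive cells held a mean of 8.08 Nkd1 UMIs in LApc and 2.85 in LApcL. The median over all cells was 5 and 1 UMIs. For Apcdd1 the mean in positive cells was 4.52 in LApc and 1.40 in LApcL, and the highest single cell held 72 and 7 UMIs. For Axin2 it was 4.60 and 3.65, for Sp5 2.24 and 1.68, for Znrf3 1.66 and 1.29, for Rnf43 2.01 and 2.14 and for Lrp4 1.21 and 1.30.

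The spread between LApc cells was wide for the same genes. The variance of Nkd1 UMIs over their mean was 5.07 in LApc and 2.58 in LApcL, and that of Apcdd1 was 7.40 and 1.40, where 1 is the value for equal cells. Nkd1 was absent from 24.4% of LApc cells, where a Poisson count of the same mean would leave 0.224% at zero. In LApcL it was absent from 29.1%, where the same calculation gives 13.2%. For Apcdd1 the tenth of cells with most UMIs held 48.0% of them in LApc and 40.2% in LApcL. For Nkd1 these shares were close, 32.8% and 34.0%. The variance over the mean grows with the mean level, which was higher in LApc.

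Pairs of the 8 genes were found together in a cell more often than the product of their shares gives, in LApc and in LApcL. With Nkd2 left aside there were 21 pairs, and all 21 were above the product in LApc and in LApcL. Among all pairs of the genes tested, 53.5% were in LApc and 54.8% in LApcL. Another seed left 19 in LApcL, and thinning to 5000 UMIs left 20 in LApc. The median ratio was 1.07 in LApc and 1.04 in LApcL, and the LApc ratio was the larger for 17 of 21 pairs. Nkd1 and Apcdd1 had the highest ratio in LApc, with 1203 cells against 998 from the product, a ratio of 1.21. In LApcL the same pair was found in 456 cells against 407, a ratio of 1.12. The next in LApc were Apcdd1 with Znrf3, at 1.18 against 1.07 in LApcL, Apcdd1 with Sp5, at 1.16 against 1.05, and Nkd1 with Znrf3, at 1.15 against 1.04. The highest ratio in LApcL was 1.14, for Apcdd1 with Lrp4, but this ratio cannot exceed the inverse of the commoner gene's share and so favours rarer genes. By the phi coefficient, the correlation of presence in a cell, Nkd1 with Apcdd1 was the highest pair in both libraries, at 0.452 in LApc and 0.124 in LApcL, where Apcdd1 with Lrp4 was at 0.058. In WT 14 of 21 pairs were above the product, where 53.9% of all pairs were, on counts too low to rank, such as 49 cells with Axin2 and Rnf43 against 34.9.

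Per cell, a mean of 0.602 of the 8 genes was found in WT, 4.22 in LApc and 3.79 in LApcL. In WT 55.4% of cells held none, while 0.972% of LApc and 0.725% of LApcL cells did. At least 6 of the 8 were found in 23.4% of LApc cells, where independent detection at the same shares gives 13.2%, and in 9.79% of LApcL cells, where it gives 6.81%. The variance of the number per cell was 2.53 in LApc against 1.37 for independent detection, and 1.87 against 1.39 in LApcL. The low end was fuller as well, with 1 gene found in 4.86% of LApc cells where independence gives 0.890%.

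**Figure D4:**
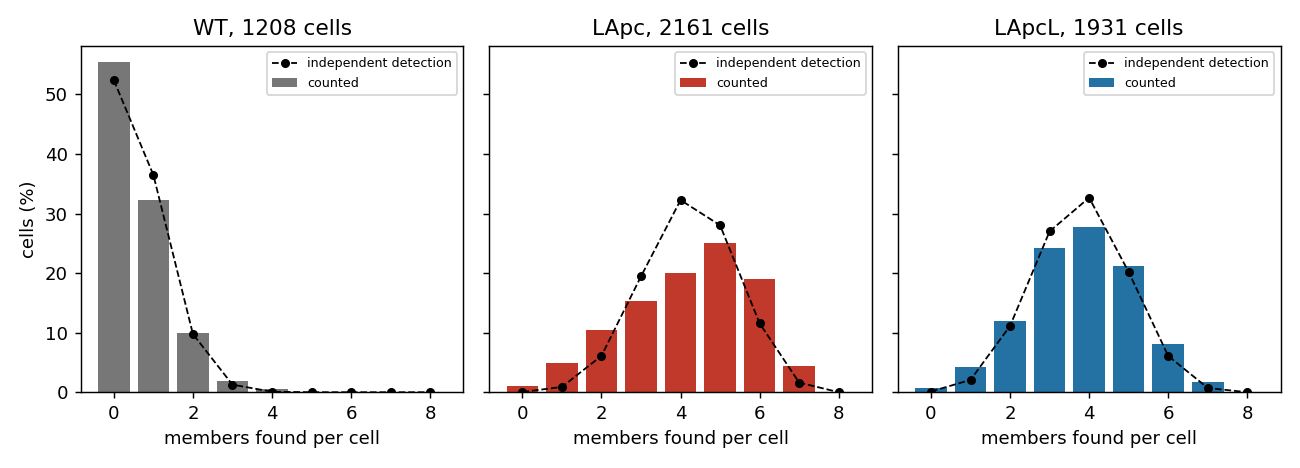
Number of the 8 genes found per deep barcode at 10000 UMIs, as a percentage of cells, in WT, LApc and LApcL (bars), with the distribution that independent detection at the same shares would give (points and dashed line). The LApc bars are wider than the points, with 23.4% of cells at 6 or more against 13.2%.

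Correlations over the cells of a library, of log UMIs at 10000, describe which genes varied along with each of the 8. These cells share a library, and the values carry counting noise. In 2161 LApc cells Nkd1 varied most closely with Aspscr1 (r = 0.75), Prox1 (0.75) and Ifitm1 (0.74), and Apcdd1 with Nkd1 (0.58), Prox1 (0.52) and Aspscr1 (0.50). Prox1 encodes a transcription factor that is itself a known Wnt target in intestinal tumours. The other LApc values were lower. Axin2 went with Nkd1 (0.34), Prox1 (0.34) and Apcdd1 (0.32), and Sp5 with Nkd1 (0.36), Apcdd1 (0.35) and Vim (0.33). Znrf3 went with Nkd1 (0.35), Tcf4 (0.33) and Pcdh7 (0.33), and Rnf43 with Axin2 (0.26), Prox1 (0.23) and Aplp2 (0.21). The gene with the symbol Tcf4 is not Tcf7l2, which encodes the Wnt factor that the study calls TCF4.

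In 1931 LApcL cells the values were smaller for Nkd1 and Apcdd1. Nkd1 went with Vim, Aspscr1 and Notum at 0.32 each, and Apcdd1 with Itga6 (0.22), Vim (0.22) and Atp1b1 (0.20). Between Nkd1 and Apcdd1 themselves r was 0.58 in LApc and 0.16 in LApcL. Axin2 went with Malat1 (0.31), Dsp (0.29) and App (0.28), and Rnf43 with Nfib (0.27), Atp1b1 (0.26) and Tbx3 (0.24). In WT, Axin2 went with the stem cell genes Olfm4 (0.32) and Slc12a2 (0.26) and with Hmgb1 (0.23). Lrp4 reached 0.2 with no gene in any library, and Znrf3 and Sp5 with none in LApcL.

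Cells were then divided by whether they held a Prox1 UMI at 10000, a choice made after these correlations had been seen. Prox1 itself was at 426 CPM in LApc and 152 CPM in LApcL, so the division need not select like cells in the 2 libraries. Prox1-positive cells were 1455 (67.3%) in LApc and 1106 (57.3%) in LApcL, with medians of 31455 and 31323 UMIs and Prox1 at 689 and 250 CPM. In them Nkd1 was at 812 CPM in LApc and 217 in LApcL, and Apcdd1 at 363 and 42.5 CPM. Axin2 was at 467 and 321 CPM, Sp5 at 159 and 90.8, Znrf3 at 90.7 and 43.9, Rnf43 at 143 and 158, and Lrp4 at 23.5 and 34.9. The log2 ratios of LApcL to LApc were -1.90 for Nkd1, -3.06 for Apcdd1 and -1.03 for Znrf3.

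In Prox1-zero cells, 706 in LApc and 825 in LApcL, the order turned for several genes. These classes were unlike in Prox1 as well, which was at 19.2 and 37.0 CPM, and in depth, with medians of 43040.5 and 35668 UMIs. Nkd1 was at 86.9 CPM in LApc and 133 CPM in LApcL, with 0.61 (0.55 to 0.68) as the log2 ratio. Sp5 was at 54.9 and 80.5 CPM, a ratio of 0.54 (0.46 to 0.63), and Znrf3 at 29.7 and 35.6 CPM, a ratio of 0.25 (0.14 to 0.37). Axin2 was at 266 and 273 CPM, with a ratio of 0.039 whose interval (-0.0012 to 0.080) held 0. Of the 5 genes whose intervals lay below 0 over all cells, only Apcdd1 kept that direction, at 47.7 and 25.7 CPM, a ratio of -0.86 that was within 2-fold. Lrp4 and Rnf43 were higher in LApcL in both classes. Within LApc, Nkd1 was thus at 812 CPM with Prox1 and 86.9 CPM without, while within LApcL it was at 217 and 133 CPM. The wide split in LApc restates the correlation with Prox1 for which the division was chosen.

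**Figure D5:**
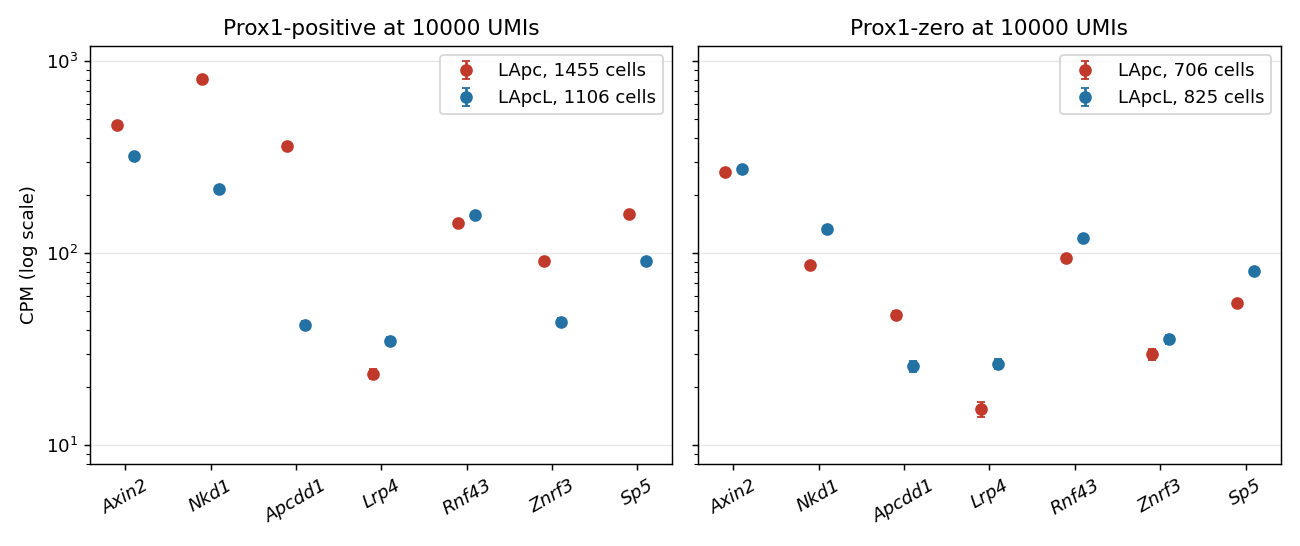
Level of 7 of the genes (Nkd2 left out) in LApc and LApcL cells with a Prox1 UMI at 10000 (left) and without one (right), in CPM on a log axis, with exact 95% Poisson intervals. Nkd1 is higher in LApc on the left (812 against 217 CPM) and higher in LApcL on the right (133 against 86.9 CPM).

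Markers of several cell types moved with this division. In LApc, Paneth markers summed to 928 CPM in Prox1-positive and 2261 CPM in Prox1-zero cells, and dividing-cell markers to 405 and 744 CPM. In LApcL these sums were 3416 and 4266 CPM, and 890 and 835 CPM. Goblet markers summed to 201 and 521 CPM in LApc and to 675 and 644 CPM in LApcL, enteroendocrine markers to 22.3 and 1.77 CPM and to 4.40 and 1.03 CPM, and tuft markers to 21.9 and 3.56 CPM and to 2.20 and 1.25 CPM. Their part in the result was not tested. Across all deep barcodes the sums of dividing-cell markers were 538 CPM in LApc and 865 CPM in LApcL.

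Cells were also divided by Mki67, a gene of dividing cells. In those without an Mki67 UMI Nkd1 was at 663 CPM in LApc (1609 cells) and 212 CPM in LApcL (1109 cells), and Apcdd1 at 302 and 39.3 CPM. In Mki67-positive cells, 552 and 822, Nkd1 was at 246 and 148 CPM and Apcdd1 at 109 and 30.8 CPM. Axin2 was at 421 and 305 CPM without Mki67, and at 321 and 294 CPM with it. Znrf3 was at 78.3 and 43.3 CPM without it and at 42.9 and 37.2 CPM with it. Sp5 changed order, at 142 and 95.2 CPM without Mki67. In Mki67-positive cells LApc held Sp5 at 69.1 CPM, with an interval of 66.2 to 72.2, below the 77.9 CPM of LApcL, whose interval was 75.2 to 80.6. Rnf43 and Lrp4 were higher in LApcL in both classes. Both Nkd1 and Apcdd1 were thus a smaller part of all UMIs in Mki67-positive cells of either library. Those cells were also deeper, with medians of 47683 against 32053 UMIs in LApc and 40998.5 against 29071 UMIs in LApcL.

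Lef1 UMIs themselves divided the LApc cells. In the 998 LApc cells with a Lef1 UMI at 10000, Nkd1 was at 793 CPM, Apcdd1 at 388, Axin2 at 496, Sp5 at 172 and Znrf3 at 93.8 CPM. In the 1163 without one they were at 335, 132, 310, 79.6 and 47.2 CPM. In LApcL, 697 cells with a Lef1 UMI held Nkd1 at 230 CPM and Apcdd1 at 47.0 CPM, and 1234 without one held 153 and 28.7 CPM. Nkd1 and Apcdd1 were lower in LApcL than in LApc among cells without a Lef1 UMI as well, as were Axin2 (310 and 272 CPM) and Znrf3 (47.2 and 36.9 CPM). Sp5, at 79.6 and 80.6 CPM, had overlapping intervals there. Median depths of these classes were 36889 and 34313.5 UMIs. With Lef1 at 72.0 CPM in LApc and 47.8 CPM in LApcL over all cells, a cell without a Lef1 UMI at 10000 can still hold Lef1 RNA. These classes therefore do not separate cells with Lef1 from cells that lack it. Lgr5, the stem cell receptor, divided the cells differently. In LApc, Nkd1 was at 413 CPM in the 476 Lgr5-positive and 561 CPM in the 1685 other cells, and Apcdd1 at 156 and 263 CPM. In LApcL, Nkd1 was at 197 CPM in the 1015 Lgr5-positive and 160 CPM in the 916 other cells, and Apcdd1 at 40.8 and 29.0 CPM, the opposite order.

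A group of LApc cells stood apart by the neuropeptide gene Npy, found in 583 (27.0%) of LApc cells, 0 of WT and 1 of LApcL. Nkd1 was at 606 CPM in the Npy-positive and 492 CPM in the Npy-zero LApc cells, Apcdd1 at 275 and 223 CPM, and Axin2 at 419 and 374 CPM. Without the Npy-positive cells the log2 ratios of LApcL to LApc were -1.46 for Nkd1, -2.65 for Apcdd1 and -0.32 for Axin2.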

How the data were processed

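The authors made droplet-based 10x 3′ libraries from 1 organoid sample per genotype and deposited whole-number counts of UMIs per gene and barcode, with no normalisation and only barcodes called as cells. The reagent kit of each library, v2 or v3, was not given in the sources used here, so kit and genotype cannot be told apart. The deposited counts name Cell Ranger 6.0.1 per the file headers, where the submitters' processing notes name 2.1.1, with mm10 (GRCm38). UMIs were summed over the deep barcodes of each library (48895147 in WT, 90864428 in LApc, 80504226 in LApcL) and scaled to CPM. At these totals 1 UMI is 0.0205, 0.0110 and 0.0124 CPM. Ratios are log2 of CPM + 1, with exact conditional binomial intervals. Levels have Poisson and shares have Clopper-Pearson intervals. With 1 library per group there is no test, and a 2-fold limit was used. The rule removed 427, 295 and 259 barcodes of 1 library with at least 10000 UMIs for mitochondrial content. Doublets were kept, since Scrublet (scanpy 1.11.5) marked 0, 2 and 2 barcodes by itself, and an alternative left out its 309, 366 and 496 highest scores. Of these, 112, 245 and 307 were deep barcodes. Thinning drew UMIs without replacement. All 8 genes are named. Correlated genes are named as the 3 highest with r of at least 0.2, among genes found in at least 10% of cells, and list genes as the highest and the lowest ratio. The list counts include Lgr5, Tcf7, Lrp5 and Lrp6 in 2 lists each. Scripts ran in Python 3.11.15 with numpy 2.4.6 and scipy 1.17.1, and interval and thinning steps were tested on simulated counts. The genes and lists were chosen with earlier results of these data known. Protein sequences were not used here.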

Additional observations from a re-analysis of the deposited data

Results flagged for a closer look

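Of the 8 genes, 2 were higher in WT barcodes shared between libraries, which enter none of the comparisons, than in the deep WT barcodes, with counting intervals apart. The share of all genes that were higher by this rule was not counted, so whether 2 of 8 is unusual cannot be told. Nkd1, at 0.625 CPM from 5 UMIs against 0.368 CPM, had overlapping intervals. Apcdd1 was at 10.2 CPM in 2820 shared WT barcodes, from 82 UMIs, and at 2.15 CPM in the deep ones. Nkd2 was at 2.25 CPM, from 18 UMIs, and at 0.184 CPM in the deep ones. The shared barcodes of LApc and LApcL held Nkd2 at 2.04 and 2.38 CPM, from 11 and 14 UMIs, and Apcdd1 at 45.4 and 12.1 CPM. Endothelial markers summed to 3844 CPM in the shared WT barcodes and to 4.79 CPM in the deep ones, and the part of these cells in the values was not tested.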

How the results depend on the processing

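Under 13 alternatives for scale, pseudocount, depth, mitochondrial limit, shared barcodes, cell weighting, doublets, genes detected, enterocyte-rich and Npy-positive barcodes and low counts, no log2 ratio whose counting interval excluded 0 changed sign, and the counts past 2-fold stayed within 1.5 times. As a mean of per-cell CPM, Lrp4 in LApc against WT just passed 2-fold, so that 7 genes were past 2-fold in place of 6. Nkd2 in LApcL against WT, 0.047 with an interval that held 0, went to -0.042 without enterocyte-rich barcodes and to -0.018 with median-of-ratios size factors. With pseudocounts of 10 and 0.1 CPM, Nkd1 ranged from 5.70 to 10.14 in LApc against WT and from 4.19 to 8.58 in LApcL against WT, and Apcdd1 from 1.88 to 3.96 in the latter. Without enterocyte-rich barcodes Axin2 fell to 3.44 in LApc and 3.06 in LApcL against WT. 2 divisions by Prox1 were added after seeing the data. In Prox1-zero barcodes 0 of the 8 genes were past 2-fold in LApcL against LApc, the ratios of Nkd1 (0.61), Znrf3 (0.25) and Sp5 (0.54) reversed, and that of Axin2 became 0.039 with an interval that held 0. The share of all genes past 2-fold in this class was not counted. The cause of these changes was not tested. Lower shares in LApcL than in LApc, 3 as reported, became 5 at 5000 UMIs, 5 when a positive cell needed 2 UMIs, 4 under another seed, 2 without thinning and 2 without Npy-positive barcodes, with Nkd1 lost in both of the last. Higher shares, 1 as reported, became 2 without thinning, 2 when a positive cell needed 2 UMIs and 2 at a 10% mitochondrial limit. WT pairs above the product fell from 14 to 4 when a positive cell needed 2 UMIs, since fewer cells then counted. Under the other settings they were 11 to 19 in WT, and over all settings 19 to 21 in LApcL and 20 or 21 in LApc. No paired analysis was possible because each group has 1 library, and for the same reason no library could be left out. Median-of-ratios scaling changed the number of genes at least 2-fold higher than in WT from 2174 to 1221 in LApc and from 2420 to 1367 in LApcL, and of those lower in LApc from 889 to 1380. At these depths no difference in Nkd2 was detected. The interval of its CPM ratio was 0.39 to 1.42 in LApcL against LApc. It was 0.74 to 3.90 in LApc against WT and 0.52 to 3.07 in LApcL against WT. Differences within these intervals could have been missed.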
